A study of Rattus norvegicus with 48 samples.

Results

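Hspa5 (ENSRNOG00000018294) and Ddit3 (ENSRNOG00000006789), both genes of the unfolded protein response, were followed across rat livers of 2 diets and 3 time points. They were chosen by identifier, 2 of 32662 genes listed in the deposited tables, and both were among the 12756 genes that passed the filter on low counts. The tables list identifiers without names, so the symbols come from the selection of these 2 rows and were not checked against an annotation of the build used for counting. Liver RNA of 48 male Wistar rats (RjHan:WI), 6 weeks old at arrival and kept in pairs, was sequenced as single-end reads of 85 bases. Groups of 8 received a diet defined in L-amino acids, deficient in choline and with 1% cholesterol (CDAA, spelled CDDA Cholesterol 1pc in the labels) or the choline-supplemented control diet (CSAA) until week 4, 8 or 12. Fat (31% of energy on CDAA, 16% on CSAA), methionine (0.17% and 0.4%), cholesterol and choline differed together between the diets, so their parts cannot be told apart. Which rats shared a cage, and which of the pools of 7 libraries held each animal, is not in the labels, so animals were treated as independent. The labels name no transgene, drug or surgery in any group.

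Proteins that enter the endoplasmic reticulum are folded there with the help of chaperones. When unfolded proteins accumulate, the sensors PERK, IRE1 and ATF6 are released from the chaperone BiP and start the unfolded protein response, which slows translation and raises the folding capacity of the cell. Hspa5 encodes BiP (GRP78), an ATP-driven chaperone of the HSP70 family that is both the sensors' partner and a classical target of ATF6. Ddit3 encodes CHOP, a transcription factor of the C/EBP family, which is raised through PERK and ATF4 and is linked to cell death under prolonged stress. The hepatocyte secretes large amounts of plasma protein and lipoprotein, and both genes are widely used as readouts of endoplasmic reticulum stress in fatty liver disease. ATF4 also responds to shortage of amino acids, and Ddit3 is known as one of its targets in that setting.

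Both promoters are shown since the element through which ATF6 raises its targets is known to lie near the start site. The 250 bases before each start site were taken from RefSeq on the GRCr8 assembly, which is a later build than the Rnor_6.0 used for the counts. In Hspa5, capitals mark the endoplasmic reticulum stress response element (ERSE), in which a CCAAT box and a CCACG box are 9 bases apart. In Ddit3, capitals mark a partial match, in which the first base of the second box differs. The region of Hspa5 is chr3:38452766-38453015 and that of Ddit3 is chr7:65001445-65001694, both on the plus strand and both printed 5′ to 3′ along the gene.
Hspa5: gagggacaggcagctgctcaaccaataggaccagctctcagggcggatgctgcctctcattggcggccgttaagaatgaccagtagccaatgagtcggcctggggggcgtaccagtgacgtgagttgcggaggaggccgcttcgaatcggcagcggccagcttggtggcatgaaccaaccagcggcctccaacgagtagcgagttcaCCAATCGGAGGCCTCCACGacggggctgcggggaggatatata
Ddit3: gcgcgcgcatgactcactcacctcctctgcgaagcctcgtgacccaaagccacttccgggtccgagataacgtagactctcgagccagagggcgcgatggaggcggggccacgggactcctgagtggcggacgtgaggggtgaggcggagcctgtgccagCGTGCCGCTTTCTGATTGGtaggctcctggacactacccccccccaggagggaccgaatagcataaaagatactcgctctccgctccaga
In Hspa5, the full pattern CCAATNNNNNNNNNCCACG was found from 43 to 25 bases before the start site. It occurs in 22 of 33469 rat promoter windows of 250 bases, or 0.0657%, with both strands searched. The window of Ddit3 lacks the full pattern and holds CCAATCAGAAAGCGGCACG on the opposite strand, from 90 to 72 bases before the start site. This matches only when the first base of the second box is left free (CCAATNNNNNNNNNNCACG), a form found in 58 windows or 0.173%, the windows of the full pattern among them. CCAAT alone, which overlaps both elements, is in 34.02% of windows and was found 4 times in Hspa5 and 1 time in Ddit3. The core TGACGT (6.95% of windows) lies 135 bases before the start of Hspa5, and the AP-1 motif TGACTCA (4.05%) lies 241 bases before that of Ddit3. Neither TGACGTGG (0.52%) nor TGATGCAA (0.693%) occurred in either window, which says only that these letters are not there.

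The reads assigned to genes numbered 13619274 to 22284359 in each library. Counts were scaled with TMM factors, which correct for library composition, and at week 12 their mean was 1.37 ± 0.0515 (SD, n = 8) for CDAA livers against 0.777 ± 0.0441 (SD, n = 8) for CSAA livers, so comparisons between the diets depend on the scaling. In the CDAA group of week 12, animals 1105 to 1108 had libraries more alike than others. The chi-square per gene, which is 1 for sampling noise alone, was 3.28 to 9.20 over their 6 pairs and at least 10.7 in the other 162 pairs within groups. Values above 1 speak only to sampling noise and cannot show that libraries are independent. All 48 libraries were counted as separate samples, as labelled, and why those of animals 1105 to 1108 were more alike was not tested. Results of edgeR without animals 1106, 1107 and 1108 are given where they differ. The ratio of Ddit3 to Hspa5 reads and the correlation of the genes were not tested without these animals. Markers of liver cell types were not analysed here, since no gene names could be joined to the tables. In bulk tissue, fewer cells of a type and less RNA per cell cannot be told apart.

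The level of each gene was first compared per length, on the RPKM scale (scaled to gene length and library size). Hspa5 was among the abundant transcripts of the liver, with mean RPKM from 399 on CSAA at week 4 to 498 on CDAA at week 8, and its rank among 12756 genes lay between 118 and 239. Ddit3 had mean RPKM from 7.88 on CSAA at week 12 to 21.5 on CDAA at week 12, with ranks between 2983 and 4674. Hspa5 was counted from 13829 to 28630 reads per animal, which leaves a counting error of 0.591 to 0.850%. Ddit3 was counted from 77 to 482 reads per animal, with a counting error of 4.55 to 11.4%, so part of its spread is counting noise. With counting noise taken out, the biological coefficient of variation was 13.0% for Hspa5, against a median of 17.7% over 71 genes of like abundance. For Ddit3 it was 17.8%, against 14.2% over 2281 genes, so among genes of like abundance Hspa5 was steadier between animals than most and Ddit3 more variable.

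With TMM scaling, Hspa5 was lower on CDAA than on CSAA at all 3 weeks, by the most at week 12. With library size alone the diet effects were 0.05, 0.31 and -0.12 on the log2 scale at weeks 4, 8 and 12. Of these only the higher level at week 8 passed edgeR's test (adjusted p = 0.568, 0.000851 and 0.158). At week 4, Hspa5 on CSAA ranged from 1046 to 1751 CPM (counts scaled to library size, with TMM factors) with a median of 1216, and on CDAA from 895 to 1077 with a median of 988. In 6 of 8 CDAA livers the value lay below every CSAA liver, so the groups overlapped slightly. At week 8, CSAA livers ranged from 1092 to 1364 (median 1217) and CDAA livers from 915 to 1124 (median 974). Only 1 CDAA liver reached the range of the CSAA livers. At week 12, CSAA livers ranged from 1033 to 1957 (median 1496) and CDAA livers from 710 to 925 (median 750). There was no overlap with TMM scaling, and the highest CDAA liver lay below the lowest CSAA liver. With library size alone, 4 CSAA livers of week 12 lay inside the CDAA range. The share of all genes without overlap at that week was not counted, so the lack of overlap with TMM does not set Hspa5 apart.

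With TMM scaling, Hspa5 was lower on CDAA than on CSAA by 0.36 ± 0.089 (log2 fold change ± SE) at week 4. The adjusted p was 0.000476 in edgeR's quasi-likelihood test. At week 8 it was lower on CDAA by 0.30 ± 0.089, with an edgeR adjusted p of 0.00253. At week 12 it was lower on CDAA by 0.95 ± 0.090, or 1.93-fold, with an edgeR adjusted p of 7.40e-13. Among all genes tested, 54.2%, 67.4% and 69.3% passed the adjusted p of 0.01 at these weeks in either direction, and 26.7%, 32.6% and 38% as lower, so a call by itself does not set the gene apart. A more negative diet effect than that of Hspa5 was found in 25.0%, 33.8% and 12.7% of genes. In the TMM fit of 48 animals, no diet effect of either gene reached the threshold of the study of an absolute log2 fold change of 1, which 19.9%, 30.2% and 30.7% of genes passed together with the adjusted p. That threshold was reached at week 12 by Hspa5 without animal 908 (-1.01, edgeR adjusted p = 1.71e-14), and by Ddit3 with library size alone (1.46, edgeR adjusted p = 2.01e-11).

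With TMM scaling, Ddit3 was higher on CDAA than on CSAA at week 12, and the diet effect at weeks 4 and 8 did not pass the test, whereas with library size alone that at week 4 passed as well. Values at week 4 ranged from 8.73 to 15.6 CPM on CSAA (median 13.3) and from 12.3 to 18.9 on CDAA (median 16.2). In 6 of 8 CDAA livers Ddit3 exceeded every CSAA liver, while 2 lay inside the CSAA range. Values at week 8 ranged from 11.7 to 20.04 on CSAA (median 16.0) and from 11.3 to 15.9 on CDAA (median 13.0). Here the groups overlapped widely, and the 4 highest livers were all CSAA. Values at week 12 ranged from 5.99 to 12.5 on CSAA (median 9.25) and from 10.2 to 17.1 on CDAA (median 14.8). In 5 of 8 CDAA livers Ddit3 lay above every CSAA liver.

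**Figure D1:**
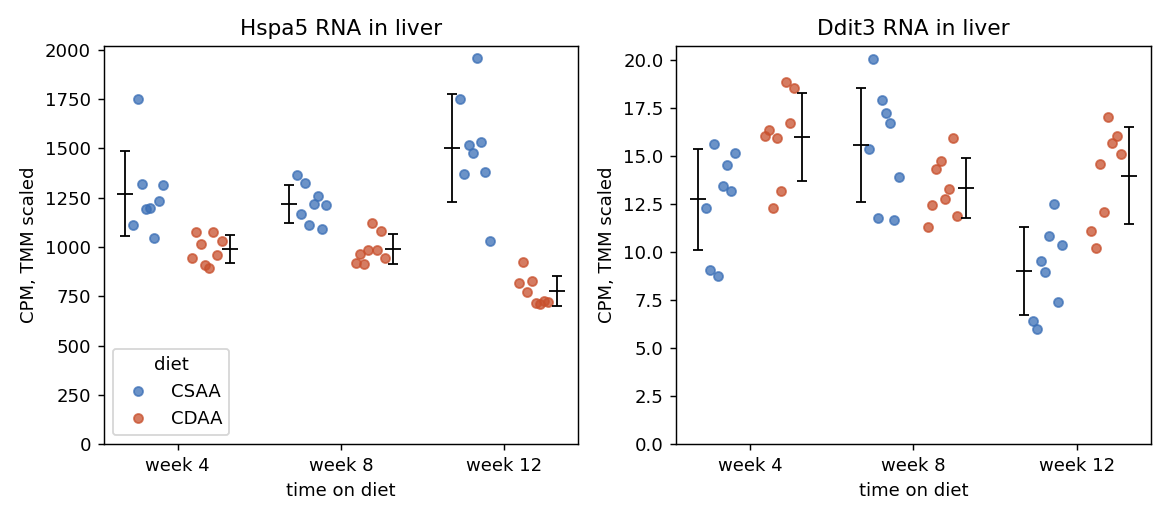
Hspa5 (left) and Ddit3 (right) in each of 48 livers, in CPM with TMM scaling (vertical axis, from 0) against weeks on diet. Points are animals, CSAA in blue and CDAA in orange, and black marks with bars are mean ± SD of 8 animals. At week 12 all 8 CDAA livers lay below the CSAA livers for Hspa5 (with library size alone the Hspa5 groups overlap), and 5 of 8 lay above them for Ddit3. The share of all genes without overlap was not counted.

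The diet effect on Ddit3 at week 4 was 0.33 ± 0.135 on the log2 scale, with an edgeR adjusted p of 0.0304, which did not pass the threshold of 0.01. With library size alone it was 0.75 and passed (edgeR adjusted p = 4.22e-05). At week 8 it was -0.22 ± 0.134, with an edgeR adjusted p of 0.127, and its 95% interval from -0.49 to 0.04 includes a decrease and no change. At week 12 Ddit3 was higher on CDAA than on CSAA by 0.64 ± 0.136, or 1.55-fold, with an edgeR adjusted p of 5.18e-05. Of all genes tested, 74.5% had a lower diet effect than Ddit3 at that week. As higher on CDAA, 27.5%, 34.8% and 31.3% of all genes passed at weeks 4, 8 and 12.

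The diet effects were next set against the median of all genes. Scaling to library size alone moved the median diet effect of all genes to 0.39, 0.65 and 0.73 at weeks 4, 8 and 12, while with TMM factors it was -0.02, 0.05 and -0.09. On library size alone the diet effects on Hspa5 were 0.05, 0.31 and -0.12, the increase at week 8 then passing edgeR's test with an adjusted p of 0.000851 and the decrease at week 12 not passing (adjusted p = 0.158). A factor per library moves all genes of that library alike, so the difference from the median gene is nearly the same under both scalings by construction. For Hspa5 this difference was -0.34, -0.35 and -0.86 with TMM and -0.34, -0.35 and -0.86 with library size. Ddit3 relative to the median gene was 0.35, -0.27 and 0.72 with TMM and 0.35, -0.28 and 0.72 with library size. Hspa5 thus lay below the median gene at each week, and Ddit3 above it at weeks 4 and 12 and below it at week 8. The ratio of CPM to RPKM puts Ddit3 at 875 to 893 bases as group means, although this ratio varied between animals. Removing the trend of each library on gene length left Hspa5 at -0.45, -0.45 and -0.96, whereas Ddit3 went to 0.53, 0.40 and 0.93. Ddit3 then passed edgeR's test as higher at all 3 weeks, with adjusted p of 0.000541, 0.00590 and 3.78e-08. The direction of Ddit3 at week 8 thus depends both on the scaling between libraries and on whether this trend is removed. Its diet effect there was -0.22 with TMM and 0.38 with library size alone, and neither passed (edgeR adjusted p = 0.127 and 0.0225). The part of gene length in the result was not tested further.

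**Figure D2:**
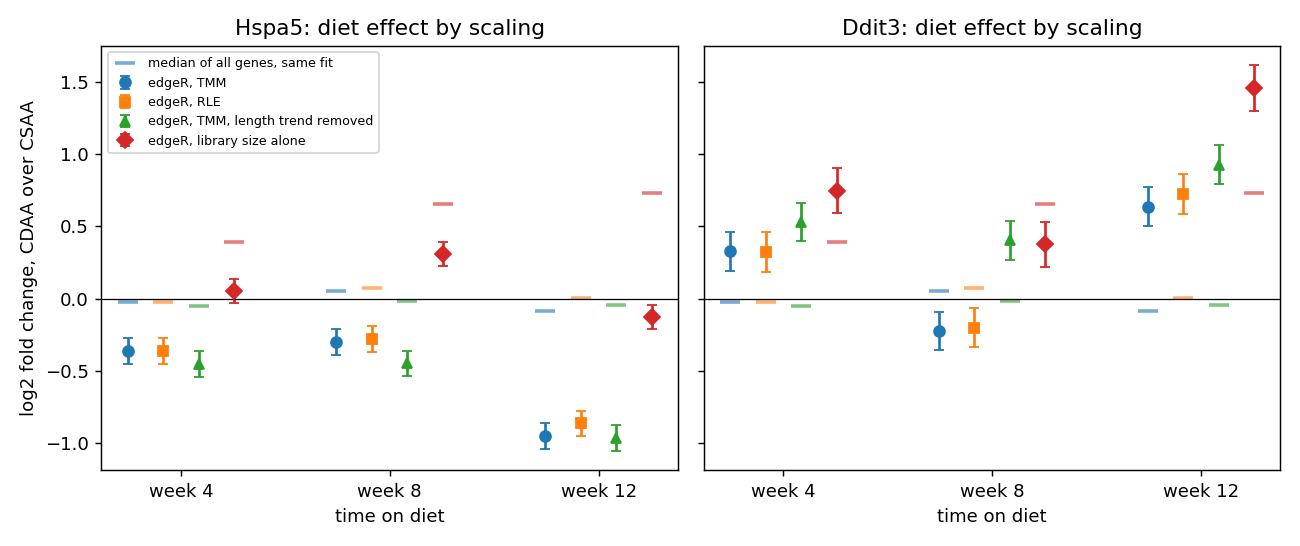
Diet effect (log2 fold change of CDAA over CSAA, vertical axis) on Hspa5 (left) and Ddit3 (right) by week, under 4 scalings in edgeR. Symbols with bars are estimates ± SE, and short horizontal lines of the same color are the median of all genes in that fit. Hspa5 lies below its own median line in each fit, while its sign at weeks 4 and 8 reverses with library size alone, and Ddit3 at week 8 is negative with TMM or RLE and positive with the other scalings.

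Whether the diet effect changed with time was tested as a diet by week interaction. For Hspa5, the effect at week 12 minus that at week 8 was -0.65 ± 0.126, and minus that at week 4 it was -0.59 ± 0.126, with edgeR adjusted p of 8.19e-05 and 0.000304. Between weeks 4 and 8 the effects differed by 0.06 ± 0.126, with an edgeR adjusted p of 0.743 and a 95% interval from -0.19 to 0.31. For Ddit3, the effect at week 12 was higher than that at week 8 by 0.86 ± 0.191, with an edgeR adjusted p of 0.000472. This last call was lost with the length trend removed (0.52, edgeR adjusted p = 0.0320), and the Hspa5 difference between weeks 12 and 4 was lost with library size alone (-0.18, edgeR adjusted p = 0.224). The Ddit3 effects of weeks 8 and 4 differed by -0.55 ± 0.190 and those of weeks 12 and 4 by 0.31 ± 0.191, and neither passed (edgeR adjusted p = 0.0219 and 0.218). With library size alone the difference between weeks 12 and 4 was 0.71 and passed (edgeR adjusted p = 0.00940), and with the length trend removed that between weeks 8 and 4 was -0.13 (edgeR adjusted p = 0.687). Of all genes, 21.2% passed the interaction of weeks 12 and 8, 22.1% that of weeks 12 and 4, and 20.8% that of weeks 8 and 4.

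The genes were next compared between weeks within each diet, with TMM scaling unless another is named. Each week had its own animals, and the size of these differences depends on the scaling. On CSAA, Ddit3 fell by 0.79 ± 0.138 from week 8 to week 12 and by 0.50 ± 0.139 from week 4 to week 12, with edgeR adjusted p of 7.42e-06 and 0.00327. With the length trend removed, the difference from week 8 was -0.46 and still passed (edgeR adjusted p = 0.00665). The decrease from week 4 did not pass with the length trend removed (-0.17, edgeR adjusted p = 0.343), nor without animal 103, 901 or 902 (-0.45, -0.44 and -0.43). Hspa5 on CSAA rose by 0.30 ± 0.089 from week 8 to week 12, with an edgeR adjusted p of 0.00542. That call was lost under RLE factors (0.24, edgeR adjusted p = 0.0247) and with library size alone (0.17, edgeR adjusted p = 0.115). It was also lost without any 1 of animals 502, 504, 507, 901 and 905 (0.24 to 0.29). From week 4 to week 8, neither gene passed on CSAA, with -0.06 for Hspa5 and 0.29 for Ddit3 (edgeR adjusted p = 0.758 and 0.227). The share of all genes that passed on CSAA was 0.196% from week 4 to 8, 30.3% from week 8 to 12 and 28% from week 4 to 12. These comparisons share animals with the diet comparisons, and in the control livers Ddit3 had its lowest mean and Hspa5 its highest at week 12.

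On CDAA, the difference of Hspa5 between weeks 8 and 4 was 0.00 ± 0.089 on the log2 scale, with a 95% interval from -0.17 to 0.18 and an edgeR adjusted p of 0.990. From week 4 to week 12 it fell by 0.35 ± 0.089, with an edgeR adjusted p of 0.000855, which did not pass without animals 1106, 1107 and 1108 (-0.28, adjusted p = 0.0203) and was not seen with library size alone (0.00, adjusted p = 1.000). From week 8 to week 12 the difference of -0.35 ± 0.089 lay at an edgeR adjusted p of 0.0105, and it passed without animal 1102 (-0.39, adjusted p = 0.00385). Ddit3 on CDAA did not pass between any weeks, with -0.26 from week 4 to 8, 0.07 from week 8 to 12 and -0.19 from week 4 to 12 (edgeR adjusted p = 0.0965, 0.826 and 0.207). Of all genes, 38.3%, 2.78% and 49.3% passed in these 3 comparisons on CDAA. Hence Ddit3 differed between the diets at week 12 beside a decrease over time on CSAA and no difference over time on CDAA that passed the test.

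Ranked by mean CPM with TMM factors, Hspa5 was highest on CSAA at week 12 (1502), followed by CSAA at week 4 (1271) and week 8 (1219), CDAA at week 8 (989.9) and week 4 (988.8), and CDAA at week 12 (777). Of the 5 pairs of neighbors in this order, CSAA week 8 against CDAA week 8 and CDAA week 4 against CDAA week 12 passed edgeR's test (adjusted p = 0.00253 and 0.000855). The means of the 3 CSAA groups thus stood above those of the 3 CDAA groups, an order that mean RPKM does not keep, with 399, 402 and 452 on CSAA and 414, 498 and 414 on CDAA at weeks 4, 8 and 12. The other neighbors did not pass the test. Ddit3 was highest on CDAA at week 4 (16.0), followed by CSAA at week 8 (15.6), CDAA at week 12 (13.99) and week 8 (13.3), CSAA at week 4 (12.8) and CSAA at week 12 (9.003). In that order only the last neighbors, CSAA week 4 against CSAA week 12, passed (edgeR adjusted p = 0.00327). That call was lost with the length trend removed and without animal 103, 901 or 902, as given above. Mean RPKM gives another order for Ddit3, with 21.5 on CDAA at week 12, 19.5 on CDAA at week 8 and at week 4, and then 14.8, 11.8 and 7.88 on CSAA at weeks 8, 4 and 12.

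The relation of both genes was next measured within each liver, as Ddit3 reads per 1000 Hspa5 reads, a ratio that does not depend on the scaling between libraries. At week 4 it ranged from 5.17 to 13.9 on CSAA (median 11.2) and from 12.1 to 18.0 on CDAA (median 17.2). In 7 of 8 CDAA livers it exceeded every CSAA liver. At week 8 the ranges were 8.89 to 17.2 on CSAA (median 12.4) and 11.4 to 15.7 on CDAA (median 13.2), with all CDAA livers inside the CSAA range. At week 12 they were 3.66 to 10.0 on CSAA (median 5.81) and 11.0 to 23.7 on CDAA (median 19.9), with no overlap.

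The ratio was 1.62-fold higher on CDAA at week 4, with a log2 difference of 0.69 ± 0.178 (SE, n = 8 per diet) and p = 0.000311 in a two-sided exact permutation test (0.000466 after Benjamini-Hochberg adjustment over 3 weeks). At week 8 the log2 difference was 0.09 ± 0.127, with p = 0.483 in the exact permutation test. At week 12 the ratio was 3.01-fold higher, with a log2 difference of 1.59 ± 0.217 and p = 0.000155 in the exact permutation test (adjusted 0.000466), the smallest that 12870 splits of 16 animals can give. The balance between the 2 transcripts therefore differed between the diets at weeks 4 and 12 whatever factor each library was scaled by. Other pairs of genes were not compared in this way. With TMM, 54.2% and 69.3% of all genes passed the diet effect at these weeks, so a differing ratio does not set this pair apart. The ratio was not corrected for the trend on gene length, and with that trend removed the diet effects of week 8 were 0.40 for Ddit3 and -0.45 for Hspa5. A ratio shows unequal change and does not tell which of the genes moved.

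**Figure D3:**
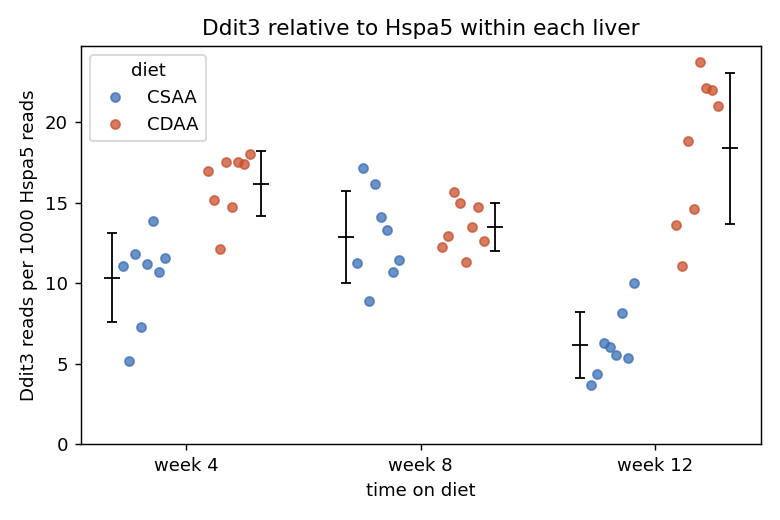
Ddit3 reads per 1000 Hspa5 reads (vertical axis, from 0) in each liver against weeks on diet. Points are animals, CSAA in blue and CDAA in orange, and black marks with bars are mean ± SD of 8 animals. At week 12 the CDAA livers lie between 11.0 and 23.7 and the CSAA livers between 3.66 and 10.0, while at week 8 the groups overlap.

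Within groups, the genes were compared across the 8 livers on log2 CPM with TMM factors. In 5 of 6 groups no correlation passed, with Pearson's r from -0.41 (CSAA week 4) to 0.43 (CDAA week 4), Spearman's rho from -0.12 to 0.67 and adjusted p of at least 0.249 in two-sided exact permutation tests of pairings. On CDAA at week 4, r with library size alone was 0.90 and passed (adjusted p = 0.00938 in the same test), so this result depends on the scaling. In the CDAA group of week 12, animals 1105 to 1108 had less Hspa5 and more Ddit3 than animals 1101 to 1104, without a clear gap between them. Animals 1105 to 1108 had Hspa5 of 710 to 728 CPM and Ddit3 of 15.1 to 17.1, and animals 1101 to 1104 had Hspa5 of 773 to 925 and Ddit3 of 10.2 to 14.6. Livers with less Hspa5 thus had more Ddit3, but animals 1105 to 1108 are those with the more alike libraries. Correlations within these sets of 4 animals were not calculated, since 4 are too few to give a useful one. Nor was the correlation calculated without animals 1106, 1107 and 1108. Over all 8 livers, Pearson's r was -0.95 (adjusted p = 0.00521 in the exact permutation test) and Spearman's rho -0.86 (adjusted p = 0.0643). With library size alone r was -0.90 and did not pass (adjusted p = 0.0122 in the same test). Without the 2 animals farthest from the median of Hspa5, r was -0.91 and did not pass (adjusted p = 0.108). The 6 animals left allow 720 pairings against 40320 with 8, so this lost call does not show that the correlation rests on those 2 animals. Without animals 1106, 1107 and 1108, the diet effects at week 12 were -0.89 for Hspa5 and 0.53 for Ddit3, with edgeR adjusted p of 1.43e-09 and 0.00235.

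**Figure D4:**
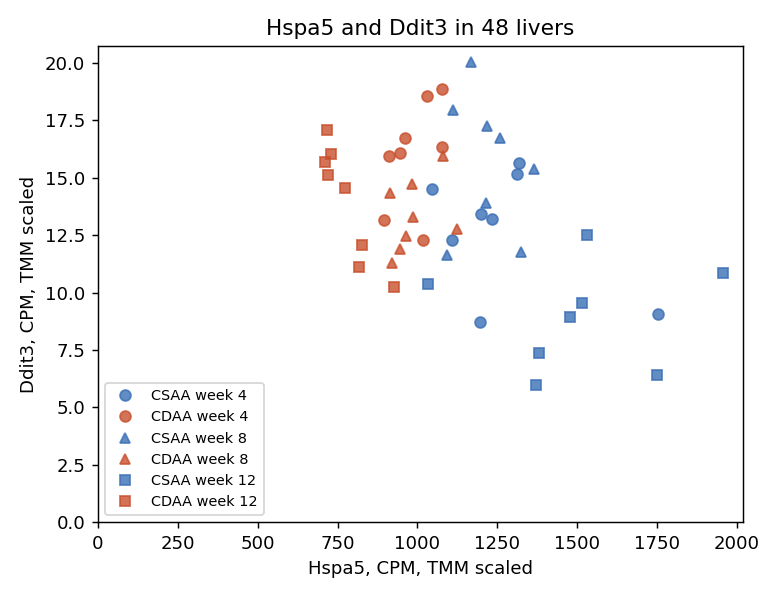
Ddit3 (vertical axis) against Hspa5 (horizontal axis) in 48 livers, both in CPM with TMM scaling and from 0. Color gives the diet and marker shape the week. CDAA livers of week 12 (orange squares) lie at Hspa5 from 710 to 925, and CSAA livers of week 12 (blue squares) at Hspa5 from 1033 to 1957 and Ddit3 from 5.99 to 12.5.

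The genes most like each of them were sought by the correlation of log2 CPM after each group's mean was removed, over 48 livers and 10905 genes, given as a description since the points share libraries and depth. Hspa5 was most like ENSRNOG00000026963 (r = 0.88) and ENSRNOG00000010944 (r = 0.85), against a median r of 0.02 over all genes. The diet effect at week 12 was -0.83 for the first and -1.34 for the second. Ddit3 was most like ENSRNOG00000003745 and ENSRNOG00000009867 (both r = 0.70), against a median of -0.01. Diet effects at week 12 were 0.91 for the first, which did not pass (edgeR adjusted p = 0.120), and 2.28 for the second (edgeR adjusted p = 2.59e-11). Between Hspa5 and Ddit3 themselves this r was -0.18, and 20.3% of genes had a lower r with Hspa5.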

How the data were processed

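Per the labels and the paper, polyadenylated RNA of 48 livers was sequenced with a stranded kit. The authors aligned the reads to Rnor_6.0 (Ensembl) with STAR, counted them per gene with featureCounts and deposited raw counts. The authors also deposited RPKM values, scaled to gene length and to reads on genes. The processing notes list FastQC 0.11.2, STAR and Cufflinks, and which tool made the RPKM values is not given in the sources used here. The ratio of CPM to RPKM was constant across animals for Hspa5 and varied for Ddit3.

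Diet, week and animal came from the labels. Both genes, the lists and the alternatives were chosen with earlier results of these data known. A gene was kept if 5 or more animals of any group reached 1 CPM. Counts were tested with edgeR 4.0.16 (R 4.3.3, TMM, quasi-likelihood test, 1 fit of 48 animals) with Benjamini-Hochberg adjustment over 12756 genes, and a gene was called at an adjusted p under 0.01. The study used limma-voom, which was an alternative (limma 3.58.1), as were DESeq2 1.42.0 without independent filtering, RLE factors, library size alone, no filter beyond 1 read, limma on log2(RPKM + 0.1), removal of the trend on gene length, the animals of a week alone, and fits without animals. Ratios and correlations used exact permutation tests (scipy 1.17.1). The edgeR fit with TMM, limma-voom, DESeq2, limma on RPKM, the removal of the length trend and the permutation tests were tried on simulated data. The other alternatives were not. The depth of 13619274 to 22284359 reads per animal gives the counting errors in the report, which cover counting alone.

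RefSeq names could not be joined to the identifiers, as 0 of 47357 entries carry an Ensembl identifier. Other genes of the unfolded protein response, cell type markers and proteins were therefore not analysed here. By rule, the 5 named genes most like each gene were to be given. Without names, 2 identifiers per gene are given instead, a limit set after the data were seen.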

Additional observations from a re-analysis of the deposited data

Results flagged for a closer look

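In the CSAA group of week 4, animal 102 stood apart in Hspa5, at 1751 CPM with TMM factors. The nearest animal was at 1319, and the gap was 0.613 of the range of the group, above the critical value of 0.526 for 8 animals. Among the 18 groups of values examined in this way, 1 was found where chance gives about 0.9. Its Ddit3 was 9.05 CPM with TMM factors, among the lower values of the group. Without this animal the diet effect on Hspa5 at week 4 was -0.28 instead of -0.36, and it still passed edgeR's test.

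Effects of the diet differed between weeks by the test of the interaction itself in 3 cases. For Hspa5 the effect at week 12 minus that at week 8 was -0.65 (edgeR adjusted p = 8.19e-05), and minus that at week 4 it was -0.59 (edgeR adjusted p = 0.000304). The effect on Ddit3 was 0.86 higher at week 12 than at week 8 (edgeR adjusted p = 0.000472). The mean TMM factor at weeks 4, 8 and 12 was 1.07, 1.29 and 1.37 in CDAA livers and 0.808, 0.848 and 0.777 in CSAA livers. The part of library composition in these differences was not tested. With library size alone the differences between weeks 12 and 8 were -0.43 for Hspa5 and 1.08 for Ddit3, and both still passed (edgeR adjusted p = 0.00409 and 0.000145). The Hspa5 difference between weeks 12 and 4 was then -0.18 and did not pass (edgeR adjusted p = 0.224).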

How the results depend on the processing

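Diet effects and interactions of both genes kept direction and call under limma-voom, DESeq2, RLE factors, no filter and the animals of a week alone. They also did without animals 303, 504 and 908 and without animals 1106 to 1108. The ratio of the genes did so under each alternative run for it, and leaving out animals 1106 to 1108 was not among these. The values that changed in sign or call follow, as log2 differences, with those of the diet effects that moved by over 1.5 times, and where a scaling is named the cause was not tested beyond the shift of the median gene given in the report.

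With library size alone and with limma on log2(RPKM + 0.1), in that order, the diet effect on Hspa5 was 0.0542 and 0.0556 at week 4, 0.31 and 0.31 at week 8 and -0.12 and -0.12 at week 12, and its week 12 minus week 4 difference -0.18 and -0.17. On Ddit3 it was 0.75 and 0.72 at week 4 (both passing), 0.38 and 0.41 at week 8 and 1.46 and 1.46 at week 12, against 0.64 with TMM, with a week 12 minus week 4 difference of 0.71 and 0.74 (both passing). Week 8 minus week 4 was 0.25 and 0.25 for Hspa5 and -0.31 for Ddit3 with RPKM, and week 12 minus week 8 was -0.43 and -0.42 for Hspa5. Under the same settings, Hspa5 on CSAA was 0.0114 and 0.0183 from week 4 to 8 and 0.17 and 0.16 from week 8 to 12. On CDAA it was 0.26 and 0.27 from week 4 to 8 and 1.03e-05 and 0.00621 from week 4 to 12, and Ddit3 on CDAA was 0.15 and 0.15 from week 4 to 12 and, with RPKM, 0.0210 from week 4 to 8.

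Without the trend on gene length, the diet effect on Ddit3 was 0.53 at week 4 and 0.40 at week 8, its week 12 minus week 8 difference 0.52, its week 8 minus week 4 difference -0.13, and its changes -0.46 on CSAA from week 8 to 12 (still passing), -0.17 on CSAA from week 4 to 12 and 0.16 and 0.23 on CDAA from week 4 to 8 and to 12. Hspa5 was then 0.00194 for the week 8 minus week 4 effect, 0.16 on CSAA from week 8 to 12 and 0.13 from week 4 to 12, -0.0275 on CDAA from week 4 to 8 and -0.35 from week 8 to 12. The rise of Hspa5 on CSAA from week 8 to 12 was 0.24 with DESeq2, 0.24 with RLE factors and 0.31 without filter, and did not pass. Hspa5 on CDAA from week 8 to 12 passed at -0.35 with limma-voom, -0.34 with DESeq2 and -0.34 without animals 303, 504 and 908, and from week 4 to 8 it was -0.00271 without filter. Without those animals Hspa5 on CSAA passed at 0.29 from week 4 to 12. Without them the diet effect on Ddit3 at week 8 was -0.15. Without animals 1106 to 1108, the week 12 minus week 4 effect on Ddit3 was 0.20, Ddit3 on CDAA was -0.0352 from week 8 to 12, and Hspa5 -0.28 from week 4 to 12.

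Leaving out each animal in turn changed no diet effect of a single week in sign or in its side of the adjusted p. Hspa5 ranged from -0.0183 to 0.0978 for the week 8 minus week 4 effect and from -0.0962 to 0.0199 on CSAA from week 4 to 8 (both signs turned without animal 102), from 0.24 to 0.36 on CSAA from week 8 to 12, from 0.18 to 0.32 on CSAA from week 4 to 12 (passing without 102 or 908), from -0.0266 to 0.0200 on CDAA from week 4 to 8 and from -0.39 to -0.32 from week 8 to 12. Ddit3 on CSAA ranged from -0.58 to -0.43 from week 4 to 12.

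Pearson's r of both genes with library size alone was 0.90 on CDAA at week 4 (adjusted p = 0.00938 in the exact permutation test) and 0.25 and -0.12 on CSAA at weeks 8 and 12. On CDAA at week 12 it was -0.90 and did not pass (adjusted p = 0.0122 in the same test), against -0.95 with TMM, which passed. With TMM and without the 2 animals farthest from the median of Hspa5, r was 0.57 on CSAA and -0.0146 on CDAA at week 4, and -0.91 on CDAA at week 12. No paired analysis was possible because no replicate number is shared between groups. The planned counts over lists of the unfolded protein response were not run under any setting. At this depth, counting error limits Ddit3 more than Hspa5, and the spread between 8 animals limits both.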

Other observations

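The ratio of CPM to RPKM equals the gene length where both rest on the same reads. It was 2562 bases in each group for Hspa5, with an SD under 1 base. For Ddit3 it varied between animals, with group means from 875 ± 17.3 (SD, n = 8) on CSAA at week 4 to 893 ± 17.4 (SD, n = 8) on CSAA at week 8. For Ddit3 it is therefore not a fixed gene length, and why it varied was not tested. On the RPKM scale the Ddit3 groups of week 12 did not overlap, with 5.17 to 10.8 on CSAA and 14.7 to 27.2 on CDAA, whereas with TMM scaling they did. The share of all genes without overlap on either scale was not counted.

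Of 4 animals that stood apart in earlier results of these data, animal 908 (CSAA, week 12) had the lowest Hspa5 of its group (1033 CPM with TMM factors), animal 1102 (CDAA, week 12) the highest Hspa5 (925) and the lowest Ddit3 (10.2), animal 303 (CDAA, week 4) the lowest Ddit3 (12.3), and animal 504 (CSAA, week 8) had Hspa5 of 1110 and Ddit3 of 17.9. Without animals 303, 504 and 908, the diet effects were -0.35, -0.27 and -0.93 for Hspa5 and 0.39, -0.15 and 0.75 for Ddit3 at weeks 4, 8 and 12.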
